A study of Mus musculus with 10 samples.

Results

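The variable segments of the immunoglobulin heavy chain, the genes whose symbols begin with Ighv, were followed in RNA from the medial knee cartilage of 10 mice. The rule took every annotated mouse gene with such a symbol, which gave 185 gene identifiers of the 35705 genes in the table. Membership rests on the symbol alone, but the set was chosen with earlier results of these data known. They carry 183 distinct symbols, since Ighv5-8 and Ighv1-13 have an identifier pair each. Of these genes, 113 are annotated as functional V genes, 70 as pseudogenes and 2 as a further class of variable gene. All lie on chromosome 12 between positions 113572927 and 116010093 of GRCm38, 183 of them on the minus strand, and their symbols fall into 16 families.

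The study compared 5 wild-type mice with 5 mice labelled miR-324-null, which lack the product of the microRNA gene Mir324. Cartilage caps were dissected from each mouse separately, untreated, and 1 total RNA library was sequenced per mouse. The labels give the cell type as chondrocyte and give no strain, age, sex, litter or batch, nor how the null allele was made or whether it is limited to a cell type.

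A developing B cell cuts and rejoins its heavy chain locus so that a single V segment is placed beside a D and a J segment, and the joined exon is then spliced to a constant gene to make the heavy chain messenger RNA. The V segment supplies most of the antigen-binding domain, and all descendants of the cell inherit the choice, apart from later point mutation. B cell precursors rearrange the locus in the bone marrow, and plasma cells, which also live there, hold very large amounts of immunoglobulin messenger RNA. The families are groups of V segments with closely similar sequence. Because a V segment is a short sequence with many close relatives, reads are shared out among relatives by the quantification program.

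Values are TPM, an abundance relative to the library total that allows for transcript length, summed per gene. The labelled cell type was checked against its markers: of 10 chondrocyte genes, 7 reached a mean of 1 TPM, while Matn1, Matn3 and Col9a1 did not, and Col2a1 ranged from 33.9 to 143 TPM. RNA of other cells was present in every library, with haemoglobin genes at 11.2% to 26.1% of all TPM. The 5 neutrophil markers summed to 52904 to 109116 TPM, against 821 to 2270 TPM for the 10 chondrocyte genes. The 6 B cell markers summed to 169.99 to 385 TPM, the 6 B cell precursor markers to 64.04 to 178 TPM, the 6 plasma cell markers to 351 to 534 TPM and the 6 T cell markers to 27.9 to 54.6 TPM. No defining marker of the B lineage was at 0. In such bulk RNA, fewer cells of a type and less RNA per cell cannot be told apart.

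The heavy V genes together made up 0.122% to 0.285% of each library. Their total was 1218, 2342, 2588, 1949 and 2532 TPM in wild-type replicates 1 to 5 and 2848, 2686, 2809.7, 2423 and 2213 TPM in Mir324-null replicates 1 to 5. All 5 null mice were above the wild-type mean, the groups overlapped, and wild-type replicate 1 was the lowest of all mice. Group means were 2126 ± 566 TPM in the wild-type and 2596 ± 271 TPM in the null mice (SD, n = 5 each), a difference in mean log2 total of 0.33. Without wild-type replicate 1 that difference was 0.14. No p is given for this sum, because it is a score over the chosen genes.

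Among partner genes, the low mouse was the same for kappa V genes but not for heavy constant genes. The kappa light chain V genes, which supply the matching part of the binding site, summed to 2013, 4003, 3599, 3084 and 3735 TPM in the wild-type mice and 4400.0, 3561, 4285, 3389 and 4203 TPM in the null mice (means 3287 ± 787 and 3967 ± 459). The heavy constant genes, to which the V exons are spliced, summed to 2430.0, 2945, 2891, 2288 and 2901 TPM in the wild-type and 3068, 3117, 3364, 2734 and 2781 TPM in the null mice (means 2691 ± 308 and 3013 ± 259). Wild-type replicate 1 was thus lowest for heavy V and kappa V, but not for the constant genes, where wild-type replicate 4 was lower. The ratio of heavy V to heavy constant TPM was 0.501, 0.795, 0.895, 0.852 and 0.873 in wild-type and 0.928, 0.862, 0.835, 0.886 and 0.796 in null mice, so wild-type replicate 1 stood below the other 9 mice. The ratio of heavy V to kappa V TPM ran from 0.526 to 0.754 over all mice, with means of 0.644 ± 0.0545 and 0.660 ± 0.0866 in the same order, and the groups overlapped.

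**Figure D1:**
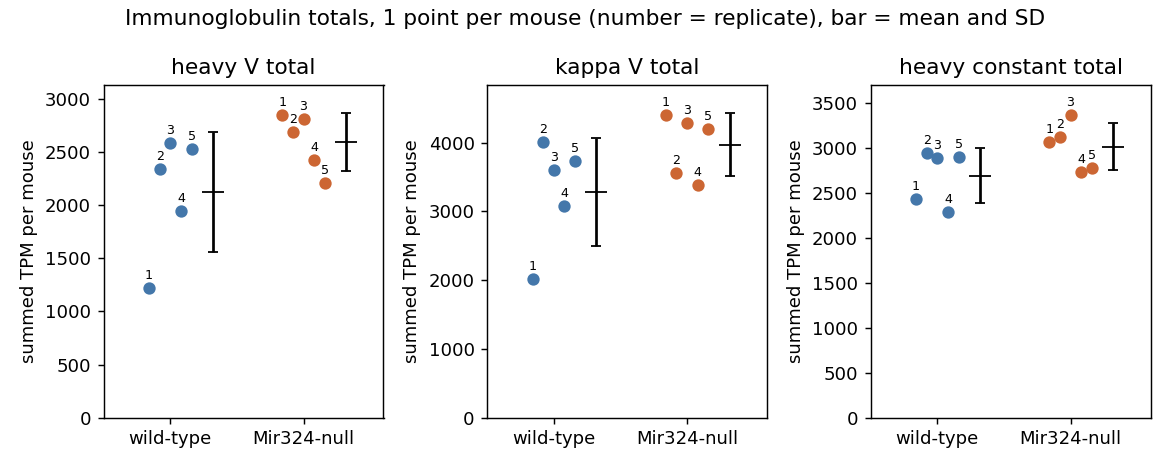
Summed TPM (vertical axes, from 0) of heavy V genes, kappa V genes and heavy constant genes, 1 point per mouse with its replicate number, bars at the group mean and SD (n = 5). Wild-type replicate 1 is lowest for heavy V (1218 TPM) and kappa V (2013 TPM), and points of the groups overlap in all 3 panels.

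A broad set of segments was present in each mouse. Over the 10 mice, 141 of the 185 genes were above 0 in at least 1 mouse and 55 in all 10, of which 52 are functional. At or above 1 TPM in all 10 mice were 41 genes. Among functional segments 108 of 113 were above 0 somewhere, against 32 of 70 pseudogenes. The 5 functional segments listed at 0 in every mouse were Ighv1-16, Ighv16-1, Ighv2-7, Ighv5-12-4 and Ighv6-4, named because the count is small. Pseudogenes took between 0.937% and 3.87% of the heavy V total. Segments at 1 TPM or more numbered 69, 90, 92, 89 and 90 in the wild-type mice and 83, 85, 85, 84 and 87 in the null mice, so that 9 mice lay between 83 and 92 and wild-type replicate 1 at 69. The means were 86 ± 9.57 and 84.8 ± 1.48. The difference, null minus wild-type, was -1.2 segments, and leaving out wild-type replicate 1 or 3 gave -5.45 and 0.3. The direction also turned with the level that counts as detected, the difference being 2.8 for segments above 0 TPM and 3.0 for those at 5 TPM or more.

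Although many segments were present, a few carried much of the total. The 5 most abundant segments of a mouse took 31.2% to 51.8% of its heavy V TPM and the 10 most abundant 48.0% to 66.9%. The effective number of segments, which is the inverse of the sum of squared shares and equals the number of segments if all were equal, was 28.02, 27.1, 15.1, 28.2 and 19.8 in wild-type mice and 9.03, 23.2, 23.6, 17.8 and 23.3 in null mice. Null replicate 1 was the most concentrated at 9.03, wild-type replicate 3 came next at 15.1, and the groups overlapped. Group means were 23.7 ± 5.90 and 19.4 ± 6.28, a difference of -4.27, which was -1.68 without null replicate 1 and -6.41 without wild-type replicate 3.

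The most abundant segment differed from mouse to mouse, with 8 different segments leading in the 10 mice. Among wild-type mice, Ighv9-3 led in replicate 1 with 8.01% of the heavy V total, Ighv7-1 in replicate 2 with 10.9%, Ighv1-12 in replicates 3 and 4 with 17.2% and 8.80%, and Ighv1-50 in replicate 5 with 15.2%. Among null mice, Ighv1-9 led in replicate 1 with 30.1%, Ighv1-18 in replicate 2 with 11.8%, Ighv1-80 in replicate 3 with 10.4%, Ighv1-12 in replicate 4 with 17.8% and Ighv3-6 in replicate 5 with 11.5%. Ighv1-12 was thus the only leader shared by several mice, and these were of both genotypes. The share of the leading segment had group means of 12.02 ± 4.005 and 16.3 ± 8.21%, wild-type before null, with overlapping groups.

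The sequences of 5 segments are shown because the account turns on them: Ighv1-9, Ighv1-12 and Ighv1-50 reached the highest TPM of single mice, and Ighv2-2 and Ighv5-12 had the smallest p between genotypes in either direction. Each is the last 294 bases of the annotated segment on the minus strand of GRCm38 (GENCODE M21 transcripts), printed 5′ to 3′, coding the variable domain up to the junction with D. Capitals mark bases that lie in at least 1 stretch of 31 bases found in no other annotated gene's transcript of the locus, and lower case marks bases shared with a relative throughout. A stretch of 31 bases is the default length of the words that kallisto matches.
Ighv1-9, chr12:114583569-114583862: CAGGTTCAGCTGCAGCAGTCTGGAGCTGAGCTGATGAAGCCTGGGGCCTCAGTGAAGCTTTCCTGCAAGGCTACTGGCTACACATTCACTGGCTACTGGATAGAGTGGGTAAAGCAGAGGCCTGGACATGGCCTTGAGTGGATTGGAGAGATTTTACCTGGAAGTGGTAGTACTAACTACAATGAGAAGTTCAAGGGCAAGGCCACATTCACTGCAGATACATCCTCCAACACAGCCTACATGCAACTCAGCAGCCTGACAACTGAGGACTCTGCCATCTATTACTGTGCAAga
Ighv1-12, chr12:114615850-114616143: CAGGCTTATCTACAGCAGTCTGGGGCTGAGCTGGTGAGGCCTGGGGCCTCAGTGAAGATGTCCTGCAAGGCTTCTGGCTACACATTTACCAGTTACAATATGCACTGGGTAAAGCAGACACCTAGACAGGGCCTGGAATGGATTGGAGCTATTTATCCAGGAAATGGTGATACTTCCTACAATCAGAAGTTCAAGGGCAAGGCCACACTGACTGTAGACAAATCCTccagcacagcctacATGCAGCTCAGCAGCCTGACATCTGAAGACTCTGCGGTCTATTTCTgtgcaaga
Ighv1-50, chr12:115119748-115120041: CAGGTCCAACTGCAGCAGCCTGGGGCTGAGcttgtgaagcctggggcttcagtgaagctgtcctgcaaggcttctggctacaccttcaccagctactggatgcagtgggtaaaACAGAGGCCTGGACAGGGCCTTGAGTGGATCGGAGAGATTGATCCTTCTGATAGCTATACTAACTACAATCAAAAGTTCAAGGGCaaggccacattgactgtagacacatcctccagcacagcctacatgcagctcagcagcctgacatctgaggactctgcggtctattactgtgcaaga
Ighv2-2, chr12:113588267-113588560: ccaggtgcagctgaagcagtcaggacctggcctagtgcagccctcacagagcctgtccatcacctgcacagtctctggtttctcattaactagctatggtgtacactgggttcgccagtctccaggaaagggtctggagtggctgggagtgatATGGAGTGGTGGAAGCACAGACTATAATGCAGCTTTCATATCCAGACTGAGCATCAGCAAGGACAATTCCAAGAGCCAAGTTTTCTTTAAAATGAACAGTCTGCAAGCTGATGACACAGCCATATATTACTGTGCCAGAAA
Ighv5-12, chr12:113702124-113702417: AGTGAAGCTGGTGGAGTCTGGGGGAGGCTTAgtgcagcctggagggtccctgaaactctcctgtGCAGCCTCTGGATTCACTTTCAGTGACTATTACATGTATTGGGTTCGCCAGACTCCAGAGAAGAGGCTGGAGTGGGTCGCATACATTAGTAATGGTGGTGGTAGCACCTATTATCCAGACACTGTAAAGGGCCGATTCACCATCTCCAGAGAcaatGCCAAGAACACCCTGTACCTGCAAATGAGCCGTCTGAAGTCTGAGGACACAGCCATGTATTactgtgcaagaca

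Capitals cover 292 of 294 bases of Ighv1-9, 272 of Ighv1-12 and 244 of Ighv5-12, but 141 of Ighv2-2 and 115 of Ighv1-50. Over whole transcripts, 58.7% of the 31-base words of Ighv2-2 are also in Ighv2-4, its nearest relative by this measure, whereas Ighv1-9 shares at most 7.43% with any single gene. The median functional segment has 55.6% of its words to itself, and 10 of the 185 genes have under 20%. The split of reads between close relatives is thus uncertain, and not only for those 10. Among the 12 segments of highest mean share, own words ran from 25.2% for Ighv1-26 to 94.0% for Ighv7-1. They were 27.1% for Ighv1-53 and 30.8% for Ighv1-50. The word TGTGCAAGA, which codes the conserved cysteine before the junction and the residues after it, was searched on the coding strand in the last 20 bases of each segment. It was present in 63 of 113 functional segments (55.8%), in 21 of 70 pseudogenes (30%) and in 11 of the 12 segments of highest mean share. Of those 12, 8 belong to family 1, as do 53 of the 113 functional segments. The word was not counted within families, so these shares do not separate abundance from family.

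Ighv1-9, a functional segment of family 1, had the highest mean share of the heavy V total, 6.84%. It measured 22.2, 59.5, 269.8, 4.16 and 92.9 TPM in wild-type replicates 1 to 5 and 857, 261, 169, 16.1 and 70.7 TPM in null replicates 1 to 5. Null replicate 1 held the highest value of any segment in any mouse, wild-type replicate 4 was far lower at 4.16 TPM, and the groups overlapped. Ighv1-12, also of family 1 and next in mean share at 6.33%, measured 12.7, 21.2, 444, 172 and 42.1 TPM in the wild-type and 194, 140.2, 97.5, 431 and 8.89 TPM in the null mice. It was highest in wild-type replicate 3 and null replicate 4, 1 mouse of each genotype, and low in null replicate 5. Ighv1-50 measured 12.1, 19.4, 6.26, 19.98 and 385 TPM in the wild-type and 81.7, 78.7, 101, 0.612 and 5.66 TPM in the null mice. Its mean share of 2.80% came mostly from wild-type replicate 5, where it held 15.2% of the total, against a median of 0.994% in the other 9 mice.

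Ighv7-1, a family 7 segment known from antibodies to phosphorylcholine, measured 6.22, 256, 32.5, 70.5 and 69.2 TPM in the wild-type and 61.7, 32.7, 2.95, 31.8 and 158 TPM in the null mice. Wild-type replicate 2 was high, null replicate 5 came next, and null replicate 3 was lowest. Ighv1-18 measured 5.95, 45.9, 17.6, 6.998 and 51.2 TPM in the wild-type and 20.2, 316, 45.3, 12.04 and 11.2 TPM in the null mice, high in null replicate 2 alone, where it took 11.8% of the total against at most 2.02% elsewhere. Ighv3-6, the leading segment of family 3, measured 91.7, 71.8, 138, 115 and 105 TPM in the wild-type and 55.8, 80.2, 80.6, 55.3 and 255 TPM in the null mice. Apart from null replicate 5, all null mice lay within or below the wild-type range. Ighv8-8, the leading segment of family 8, measured 2.29, 25.7, 295, 58.5 and 198 TPM in the wild-type and 9.46, 43.1, 214, 40.6 and 96.5 TPM in the null mice and was high in wild-type replicates 3 and 5 and null replicate 3.

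Ighv1-80 measured 45.3, 149.8, 20.8, 87.3 and 161 TPM in the wild-type and 177, 146, 293, 22.9 and 51.1 TPM in the null mice, and Ighv9-3 measured 97.5, 8.29, 89.1, 34.6 and 33.9 and 45.6, 37.2, 74.4, 79.3 and 41.99 TPM in the same order. Both ranged widely within each genotype and overlapped between them. The 12 segments of highest mean share, which also include Ighv1-26, Ighv1-53, Ighv1-55 and Ighv1-82, held 46.0% of the heavy V total on average, and 14 segments were enough for 50%. The highest share of a mouse exceeded the lowest by 4.66-fold for Ighv1-53, the steadiest of the 12, and by 602-fold for Ighv1-50. Of these 12 segments 8 belong to family 1, and 11 were at 1 TPM or more in all mice. Just outside the 12 stood Ighv1-64 with 2.21%, against 2.57% for Ighv9-3, the lowest inside.

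The other 4 of the 12 were all functional segments of family 1. Ighv1-26 measured 39.1, 81.6, 96.01, 50.7 and 42.8 TPM across the wild-type mice and 23.1, 92.2, 72.8, 120.2 and 75.3 TPM across the null mice, and Ighv1-53 45.9, 66.2, 41.7, 52.7 and 140.2 TPM and 107, 39.3, 33.4, 46.1 and 48.4 TPM. Both were present at more than 20 TPM in every mouse. Ighv1-53 was highest in wild-type replicate 5 and, among null mice, in replicate 1. Ighv1-55 measured 72.5, 68.8, 7.69, 88.7 and 46.2 TPM across the wild-type mice and 121, 26.2, 14.6, 104 and 22.6 TPM across the null mice, and Ighv1-82 36.7, 35.2, 36.2, 109 and 16.1 TPM and 108, 16.2, 109, 103 and 31.7 TPM. The groups overlapped in all 4.

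**Figure D2:**
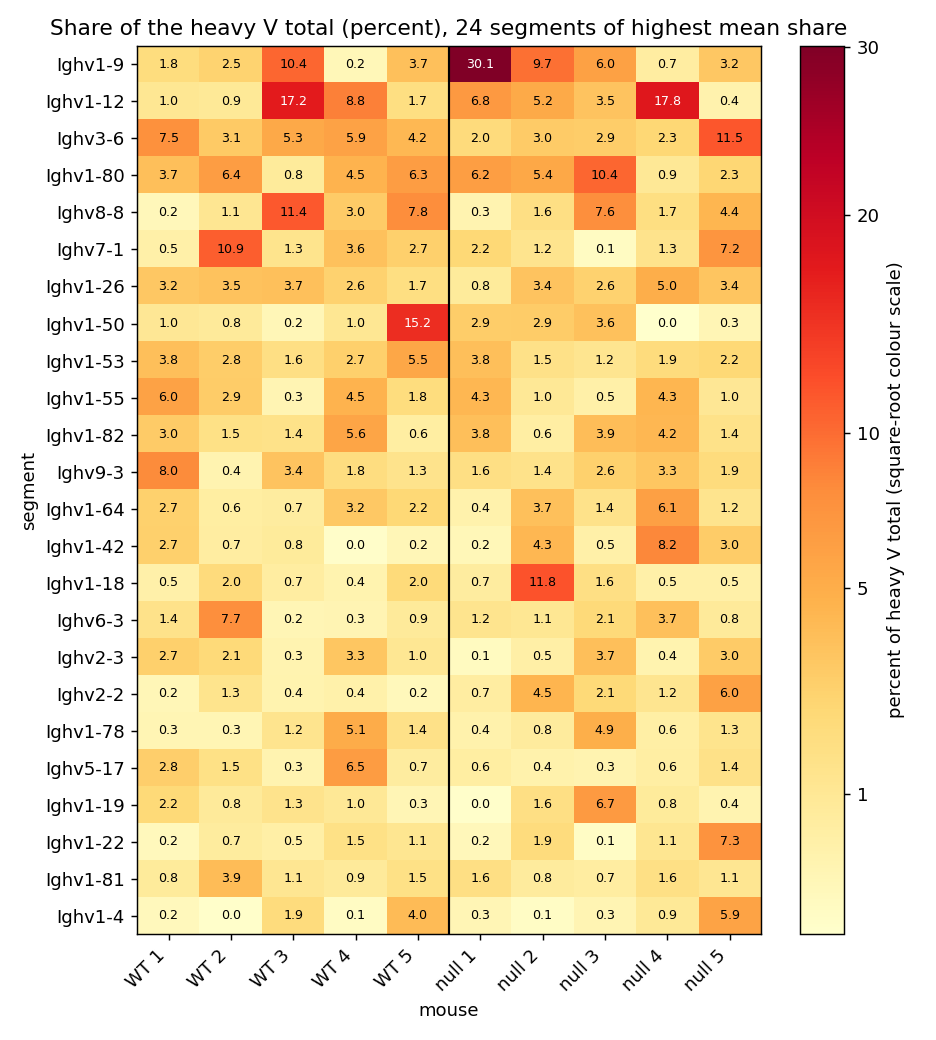
Share of the heavy V total, in percent, of the 24 segments of highest mean share (rows) in each of the 10 mice (columns, wild-type left of the line), with darker colour for a higher share on a square-root scale. The largest cell is Ighv1-9 in Mir324-null replicate 1 at 30.1%, and high cells of a segment are scattered over mice of both genotypes.

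By family, family 1 dominated. It is the largest group, with 93 of the 185 genes and 53 of the 113 functional segments (46.9%), and held 62.5% of the heavy V total on average. Its share was 56.5, 54.4, 58.2, 58.1 and 65.4% in wild-type and 80.1, 72.1, 61.97, 69.9 and 48.4% in null mice, highest in null replicate 1 and lowest in null replicate 5, so the null mice spanned a wider range than the wild-type mice and enclosed it. Means were 58.5 ± 4.15% and 66.5 ± 12.03%, a difference of 7.95 percentage points, which was 4.54 without null replicate 1 and 12.5 without null replicate 5. Families 2, 3 and 8 followed with mean shares of 7.14%, 5.85% and 5.73%, led by Ighv2-3, Ighv3-6 and Ighv8-8. Family 2 averaged 6.27 ± 2.15% in wild-type and 8.01 ± 5.47% in null mice and family 8 7.51 ± 5.998% and 3.94 ± 2.64%, both with overlapping groups.

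Family 5, with 10 functional segments led by Ighv5-17, had 4.83, 5.86, 2.31, 8.75 and 2.19% in wild-type and 1.65, 2.81, 1.05, 3.16 and 3.94% in null mice. All 5 null mice were below the wild-type mean, although the groups overlapped (means 4.79 ± 2.73% and 2.52 ± 1.17%). Family 4, led by Ighv4-1, was small, at 0.354 ± 0.259% and 0.693 ± 0.264%. Families 7, 6 and 9 had mean shares of 4.00%, 3.30% and 3.13%, and families 14, 11 and 10 of 1.72%, 1.118% and 1.06%, with Ighv6-3, Ighv14-2, Ighv11-2 and Ighv10-1 leading families 6, 14, 11 and 10. Families 12, 13 and 15, led by Ighv12-3, Ighv13-2 and Ighv15-2, held under 1% each on average, and family 16 was listed at 0 throughout. Single mice set several of these values: family 3 reached 16.3% in null replicate 5, family 8 16.4% in wild-type replicate 3, family 7 11.3% in wild-type replicate 2 and family 11 5.41% in wild-type replicate 5.

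The leading segments of the smaller families varied in the same manner. Ighv2-3 measured 32.9, 48.3, 8.80, 64.3 and 26.5 TPM across the wild-type mice and 3.23, 13.96, 105, 8.93 and 65.9 TPM across the null mice, lowest in null replicate 1. Ighv5-17 measured 34.1, 35.5, 8.99, 127 and 17.96 TPM and 17.8, 11.03, 9.80, 14.4 and 32.02 TPM in the same order. Ighv6-3 measured 16.7, 179.9, 6.35, 5.66 and 21.6 TPM and 34.5, 28.4, 58.2, 88.9 and 18.6 TPM, and was highest in wild-type replicate 2. In each of the 3 segments the groups overlapped.

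Along the locus, segments at every distance from the D segments were represented. The span was divided into 3 zones of 812 kb. The zone nearest the D segments holds 68 genes, 43 of them functional, and gave a mean share of 27.4% (29.2 ± 6.64% in wild-type and 25.5 ± 10.8% in null mice). The middle zone holds 72 genes, 40 functional, and gave 40.3% (35.6 ± 9.65% in wild-type and 44.996 ± 9.57% in null mice). The farthest zone holds 45 genes, 30 functional, and gave 32.3% (35.2 ± 3.49% in wild-type and 29.5 ± 5.41% in null mice). The groups overlapped in all 3 zones, and null replicate 5, where Ighv3-6 and Ighv7-1 were high, had the largest share of the nearest zone at 43.8%.

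**Figure D3:**
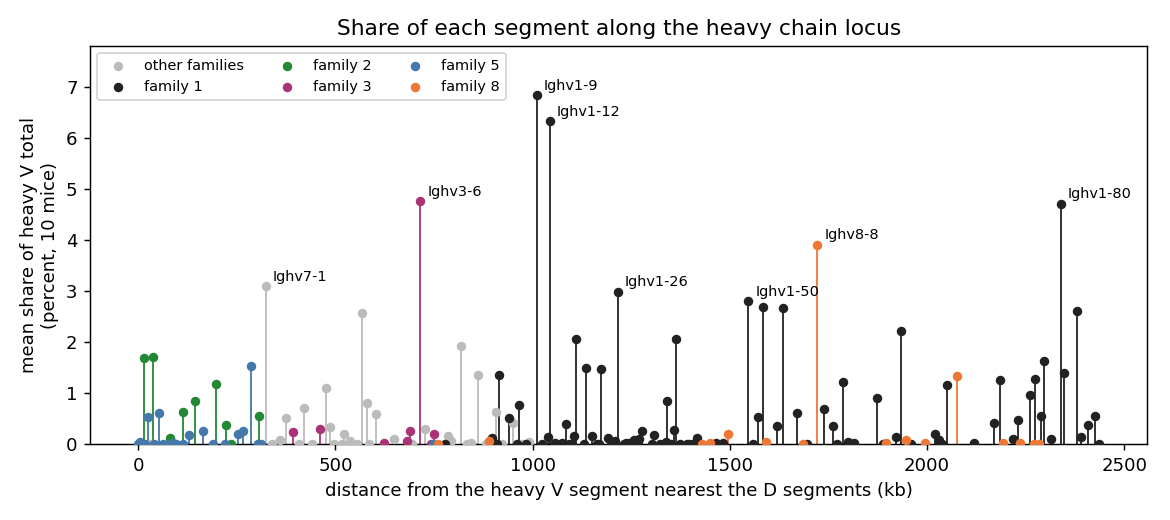
Mean share of the heavy V total over the 10 mice (percent) for each segment, against its distance in kb from the segment nearest the D segments, with colour for the family. Segments with a high share occur along the whole span, with Ighv1-9 (6.84%) and Ighv1-12 (6.33%) the highest.

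Segment profiles overlapped to a similar extent within and between genotypes, with wide ranges. The overlap of a pair of mice, taken as the sum over segments of the smaller of their shares, had a median of 46.8% over the 10 wild-type pairs (40.7% to 53.9%), 45.02% over the 10 null pairs (35.2% to 53.1%) and 47.1% over the 25 pairs between genotypes (39.7% to 58.0%). Pairs share mice, so these are a description. Kappa V profiles had a like overlap, with a median of 45.7% over all pairs (35.9% to 57.2%).

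Of the 185 genes, 100 had a mean of at least 1 TPM and were tested between genotypes, 89 functional and 11 pseudogenes, and the other 85 were too low. The spread of these 100 between mice of a genotype was large. Their residual SD on the log2(TPM + 1) scale had a median of 1.33 and ran from 0.462 for Ighv1-39 to 2.65, against a median of 0.240 over all 13841 genes tested. All 100 were above that all-gene median, and 77 had a residual SD above 1, as did 319 (2.30%) of all genes tested. Genes of like level, the 6508 with a mean log2 value between 1.63 and 4.23, had a median of 0.262, and the 50 heavy V genes in that band 1.37. Kappa V genes had a median of 1.54 over 90 genes, and of the 100 genes with the largest residual SD 28 were heavy V and 40 kappa V.

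**Figure D4:**
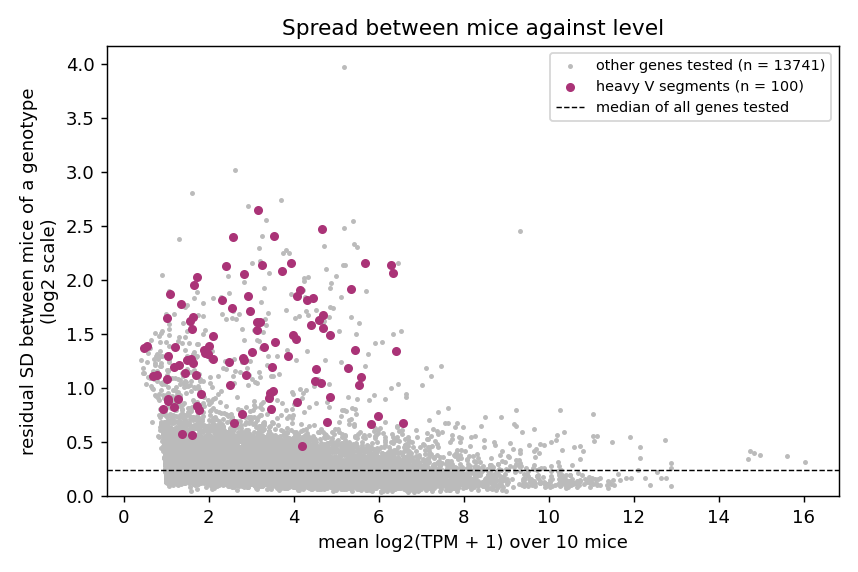
Residual SD within genotype (log2 scale) against mean log2(TPM + 1) for the 13841 genes tested, with the 100 heavy V genes marked. The heavy V genes have a median of 1.33 and lie above genes of like mean level, whose median is 0.262.

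Between genotypes, 0 of the 100 heavy V genes had an adjusted p under 0.05 by limma, where 0% of the 13841 genes tested did. The smallest adjusted p over all genes was 0.277. At an unadjusted p under 0.05, 5 heavy V genes were higher in null mice (5.0%, against 4.28% of all genes) and 8 were lower (8.0%, against 7.3% of all genes), shares near those of all genes. In no heavy V gene were the groups without overlap, against 1.94% of all genes. The log2 difference, null minus wild-type, was above 0 for 59 of the 100 and below 0 for 41, with a median of 0.26, whereas the median over all genes was -0.045 and 40.0% were above 0. Without wild-type replicate 1, the mouse with the low total, the split was 53 against 49 and the median 0.039, and the median was 0.16 without null replicate 2 and 0.13 without null replicate 4.

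The 3 segments with the smallest unadjusted p among those higher in null mice were Ighv2-2, Ighv4-1 and Ighv1-20, all functional. Ighv2-2, a family 2 segment close to the D segments, measured 2.86, 29.9, 9.60, 8.76 and 4.41 TPM in the wild-type and 19.2, 120.1, 59.8, 29.04 and 133 TPM in the null mice. Null replicates 2 and 5 were the highest, wild-type replicate 2 lay above null replicates 1 and 4, and the groups overlapped. The means were 11.1 ± 10.9 and 72.1 ± 51.9 TPM (SD, n = 5 each). The log2 difference, null minus wild-type, was 2.62 (SE 0.621) and missed the threshold (limma p = 0.00125, adjusted p = 0.277, exact p = 0.0238). Ighv4-1 measured 2.03, 16.998, 3.19, 9.18 and 5.97 TPM in the wild-type and 26.1, 16.9, 10.8, 12.7 and 22.4 TPM in the null mice (7.47 ± 5.997 and 17.8 ± 6.44). Wild-type replicate 2 lay within the null range and the other 4 wild-type mice below it. Its log2 difference was 1.36 (SE 0.430), with limma p = 0.00831, adjusted p = 0.319, exact p = 0.0397. Ighv1-20 was low, at 0, 5.86, 1.03, 0.264 and 0 TPM in the wild-type and 5.54, 16.3, 0.651, 2.15 and 7.25 TPM in the null mice, with a log2 difference of 1.62 (SE 0.659) and limma p = 0.0305, adjusted p = 0.382, exact p = 0.0873.

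In the other direction the 3 were Ighv5-12, Ighv9-4 and Ighv1-59, also functional. Ighv5-12, of family 5, measured 2.58, 5.35, 6.22, 10.8 and 7.95 TPM in the wild-type and 0.506, 0, 3.77, 0 and 0.904 TPM in the null mice (6.57 ± 3.05 and 1.04 ± 1.57). It was listed at 0 in null replicates 2 and 4, and the groups overlapped through null replicate 3 alone. The log2 difference, null minus wild-type, was -2.06 (SE 0.432), with limma p = 0.000496, adjusted p = 0.277, exact p = 0.0159. Ighv9-4 measured 8.08, 4.18, 7.76, 18.2 and 8.08 TPM in the wild-type and 5.76, 2.17, 4.45, 1.03 and 2.86 TPM in the null mice (9.27 ± 5.27 and 3.25 ± 1.87). Wild-type replicate 4 was highest, wild-type replicate 2 lay below null replicates 1 and 3, and the log2 difference was -1.26 (SE 0.367; limma p = 0.00518, adjusted p = 0.308, exact p = 0.0238). Ighv1-59 measured 16.4, 4.61, 9.81, 5.13 and 21.9 TPM in the wild-type and 0.959, 4.51, 6.20, 0 and 2.16 TPM in the null mice, with a log2 difference of -1.85 (SE 0.548; limma p = 0.00578, adjusted p = 0.310, exact p = 0.0317). The smallest p that the exact permutation test can give here is 0.00794, and none of the 6 segments passed the threshold of 0.05 on the adjusted p. Differences on this scale understate those of segments with low TPM. The other 7 segments with an unadjusted p under 0.05, named to complete the count, were Ighv1-15 and Ighv7-4, higher in null mice, and Ighv1-85, Ighv1-39, Ighv1-79, Ighv1-11 and Ighv14-1, lower. Of these, the pseudogene Ighv1-79 was listed at 0 in all 5 null mice. Its mean share in the wild-type mice was 0.215% of the heavy V total, and the groups overlapped at 0.

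**Figure D5:**
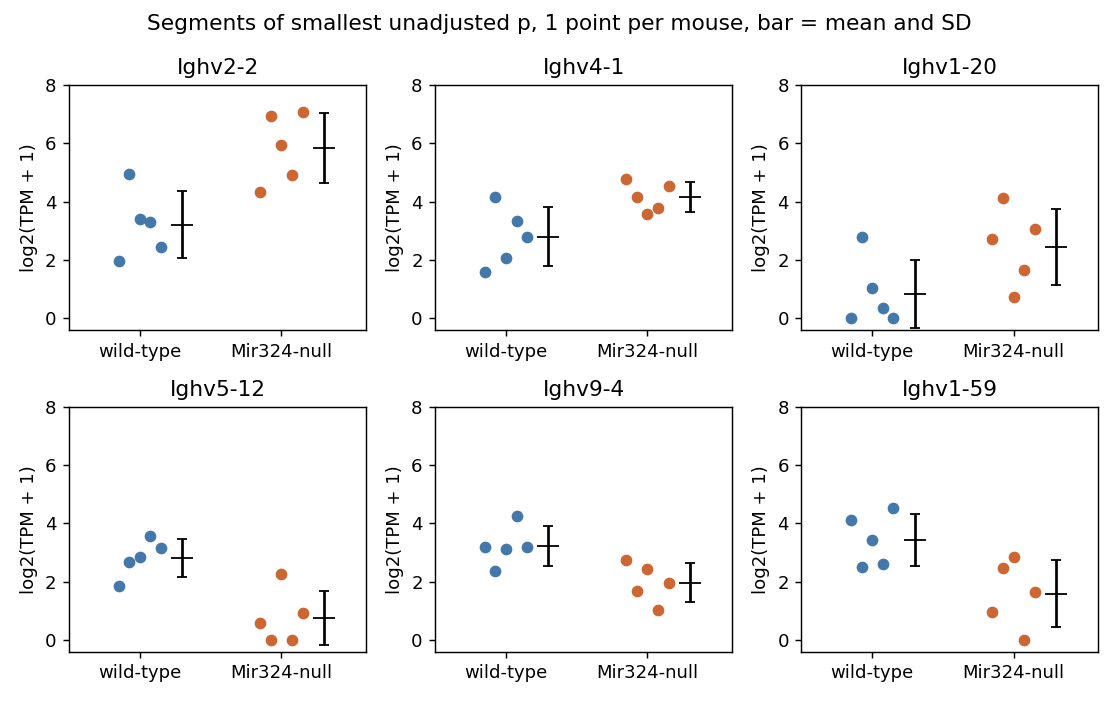
log2(TPM + 1) of the 6 segments of lowest unadjusted p, 3 per direction, 1 point per mouse, bars at the group mean and SD (n = 5). Means differ while points of the groups overlap in each panel, and the smallest adjusted p is 0.277.

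The constant genes, which define the antibody class joined to these V segments, were given by a list of 8. Of these 7 were tested, 0 were called and 0 had an unadjusted limma p under 0.05, with 4 higher and 3 lower in null mice and a median log2 difference of 0.065, against -0.045 over all genes. Ighm, the constant gene of IgM, measured 583, 1267, 2079, 792 and 1997 TPM in the wild-type and 2038, 1221, 1894, 518 and 1246 TPM in the null mice. It ranged widely in either genotype, and its log2 difference of 0.065 turned negative on leaving out any 1 of wild-type replicates 1 and 4 and null replicates 1 and 3. Ighg2b, the constant gene of IgG2b, measured 1011, 885, 342, 181 and 346 TPM in the wild-type and 499.6, 1129.7, 735, 967 and 837 TPM in the null mice, with a log2 difference of 0.82 (limma p = 0.0766, adjusted p = 0.489, exact p = 0.135). That difference was 0.49 without wild-type replicate 4 and up to 1.11 without wild-type replicate 1. Igha, the constant gene of IgA, measured 611, 342, 306, 839 and 441 TPM and 331, 253, 424, 448 and 476 TPM, and Ighg1 13.3, 30.1, 22.7, 173 and 7.64 TPM and 22.8, 203, 36.6, 161 and 55.8 TPM in the same order. Ighm took 23.98, 43.01, 71.9, 34.6 and 68.8% of heavy constant TPM in the wild-type and 66.4, 39.2, 56.3, 18.9 and 44.8% in null mice, with wide and overlapping ranges.

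The genes of recombination, the surrogate light chain and the B cell receptor, a list of 13, were all tested. None was called, 5 had an unadjusted limma p under 0.05, all of them lower in null mice, where 7.3% of all genes were lower at that level. All 13 had a negative difference, as did 8307 of all 13841 genes, with a median log2 difference of -0.44 against -0.045 over all genes. The number below 0 was 12 of 13 with haemoglobin genes removed and without wild-type replicate 2 or 3 or null replicate 4. Without null replicate 1 it was 11. The 5 were Vpreb3 (-0.70), of pre-B cell receptor assembly, Cd79a (-0.44) and Cd79b (-0.44), which signal for the receptor, Pax5 (-0.52), the factor of B cell identity, and Rag1 (-0.55), which cuts the V, D and J segments, and the smallest adjusted p was 0.287. That count of 5 was 1 with haemoglobin genes removed and 2 to 8 on leaving out 1 mouse at a time, lowest without wild-type replicate 3 or null replicate 1 or 4 and highest without null replicate 3. Vpreb3 measured 133, 92.8, 131, 133 and 119.5 TPM in the wild-type and 61.4, 84.05, 103, 49.02 and 85.1 TPM in the null mice, and Rag1 10.5, 8.80, 16.8, 17.9 and 17.6 TPM and 7.87, 12.5, 11.4, 5.69 and 9.43 TPM. The groups overlapped in both genes. The list summed to 579.96 ± 52.6 TPM in the wild-type and 434 ± 132 TPM in the null mice, lower in 4 of 5 null mice than the wild-type mean, while the heavy V total was above its wild-type mean in 5 of 5. That heavy V mean includes the low wild-type replicate 1 at 1218 TPM, and the log2 difference of the heavy V total was 0.14 without this mouse.

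Of 8 plasma cell genes 7 were tested, 0 were called, and Sdc1, the surface proteoglycan used to sort plasma cells, was lower at an unadjusted limma p under 0.05 (log2 difference -0.48, p = 0.0315, adjusted p = 0.386, exact p = 0.0635). That is 1 of 7, where 7.3% of all genes were lower at that level. The count was 0 with haemoglobin genes removed and on leaving out wild-type replicate 1 or 4 or null replicate 1, 4 or 5, and 2 without wild-type replicate 3. Of the 7, 1 was higher and 6 lower in null mice, with a median log2 difference of -0.24 against -0.045 over all genes. That median was -0.16 without wild-type replicate 2, -0.14 without null replicate 4 and -0.14 with quantile normalization. The list summed to 476 ± 59.1 TPM in the wild-type and 429 ± 65.1 TPM in the null mice. Jchain, which links IgA and IgM units, measured 185, 279.5, 326, 279 and 362 TPM in the wild-type and 254, 189.9, 323, 229 and 312 TPM in the null mice, with overlapping groups. Markers of other cells are given beside these values. The 5 neutrophil genes summed to 77401 ± 22025 TPM for wild-type mice and 71324 ± 23131 TPM for null mice. All 5 were tested, and 0 had an unadjusted limma p under 0.05. The 4 erythroid genes summed to 104244 ± 26126 TPM for wild-type mice (74817 to 132513) and 139477 ± 28484 TPM for null mice (106345 to 175475), and all 5 null mice exceeded the wild-type average. All 4 were tested, 0 were called, and 3 were higher at an unadjusted limma p under 0.05, against 4.28% of all genes. The 10 chondrocyte genes summed to 1342 ± 583 TPM for wild-type mice (863 to 2270.1) and 1018 ± 179 TPM for null mice (821 to 1228), and 0 of 5 null mice exceeded the wild-type average. That average was raised by wild-type replicate 1, the mouse with 2270.1 TPM. The medians were closer, at 1071 TPM for wild-type and 948 TPM for null mice, and the groups overlapped. Of the 7 tested, 0 were called and 5 were lower at that level, against 7.3% of all genes, and their median log2 difference was -0.66. The part of these markers in the heavy V values was not tested. With haemoglobin genes removed and each library rescaled, the log2 difference of the heavy V total was 0.42, and 64 of 103 heavy V genes tested were above 0, as were 8137 of all 14218 genes, against 5534 of 13841 without that step. Median-ratio scaling gave 60 of 100 heavy V genes and 7013 of 13841 genes above 0.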

How the data were processed

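Libraries were made with a low-input NEB kit from total RNA, per the labels' protocols. The authors deposited 1 table of TPM values per transcript, and kallisto and DESeq2 are named in the submitters' processing notes, with no version. Those notes also name the build GRCh38, a human build, although all transcript identifiers used were mouse. Each column summed to 1000000 TPM. Read depth is unknown, so no counting interval was computed. 0 columns belonged to other samples.

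Of 116912 transcripts, 115440 matched GENCODE M21 (GRCm38) by identifier without version, of which 13 had the same version, so sequences and coordinates are those of that annotation. The unmatched 1472 held 0.275% to 0.356% of TPM. TPM were summed per gene. Genes averaging 1 TPM or more (13841) were compared as log2(TPM + 1) with limma 3.58.1 in R 4.3.3 (trend on mean level), two-sided, with Benjamini-Hochberg adjustment over all of them. The fit was tested on simulated data. Exact permutation tests of single genes covered 252 divisions of the mice into 5 and 5. The p-values set the difference between genotype means against the spread between these mice. Tables were made with Python 3.11.15.

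Named singly were the 12 segments of highest mean share, the leading segment of each mouse and family, the 3 with the smallest p in each direction, and listed B lineage genes. Members and lists were chosen with earlier results of these data known. Other scalings, pseudocounts, filters and omitted mice were tried.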

Additional observations from a re-analysis of the deposited data

Results flagged for a closer look

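Each value here lay apart from the other 4 mice of its genotype, its gap to the nearest of them being larger than the 95% limit of Dixon's test for 5 samples. Of 90 groups examined 19 held such a value. The limit is one that chance passes in about 1 in 20 groups, but that rate does not hold here, because many of the segments examined were named for a high share in a single mouse, such as Ighv7-1, Ighv1-50, Ighv1-18 and Ighv3-6. Wild-type replicate 1 had 69 segments at 1 TPM or more, against 89 to 92 in the other wild-type mice.

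Wild-type replicate 2 had a family 7 share of 11.3% (others 1.51 to 4.14%), with Ighv7-1 at 256 TPM (others 6.22 to 70.5). The same mouse had Ighv2-2 at 29.9 TPM (others 2.86 to 9.60), Ighv1-20 at 5.86 TPM (others 0 to 1.03) and the constant gene Ighg3 at 124 TPM (others 0.888 to 13.9). Wild-type replicate 4 had Ighv1-82 at 109 TPM (others 16.1 to 36.7), Ighv9-4 at 18.2 TPM (others 4.18 to 8.08) and the constant gene Ighg1 at 173 TPM (others 7.64 to 30.1). Wild-type replicate 5 had a family 11 share of 5.41% (others 0.0228 to 1.25%), Ighv1-50 at 385 TPM (others 6.26 to 19.98) and Ighv1-53 at 140.2 TPM (others 41.7 to 66.2).

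Among null mice, replicate 5 had a pseudogene share of 3.87% (others 0.937 to 1.21%), a family 3 share of 16.3% (others 3.10 to 3.35%), a family 7 share of 8.36% (others 0.723 to 2.79%) and Ighv3-6 at 255 TPM (others 55.3 to 80.6). Most of the pseudogene TPM of null replicate 5 came from a single gene, Ighv3-2, whose values are given further below. Null replicate 1 had Ighv1-53 at 107 TPM (others 33.4 to 48.4), null replicate 2 had Ighv1-18 at 316 TPM (others 11.2 to 45.3) and null replicate 3 had Ighv5-12 at 3.77 TPM (others 0 to 0.904).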

How the results depend on the processing

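Across the scalings, pseudocounts, filters, trend settings and omitted mice tried, 0 heavy V genes had an adjusted p under 0.05 by limma. The 6 segments with the smallest p kept their direction in each of the 18 or 19 alternatives in which they were tested, with adjusted p from 0.135 to 0.644. They were picked by p in these same mice, and some alternatives leave the difference itself unchanged, so the kept direction is no independent support. Over all genes, the count called was 0 to 1 on leaving out 1 mouse at a time: 1 gene without wild-type replicate 3 (Gm37419), 1 without wild-type replicate 4 (Igkv2-109) and 1 without null replicate 1 (Rpl30-ps9), named after their values were seen. The Ighm log2 difference, 0.065 with all mice, ran from -0.19 to 0.38 over omitted mice. It was -0.194 without wild-type replicate 1, -0.0832 without wild-type replicate 4, -0.112 without null replicate 1 and -0.0850 without null replicate 3, and the cause was not tested. The heavy V total difference ran from 0.14 to 0.42 over omitted mice, the family 1 share difference from 4.54 to 12.5 percentage points, the effective number from -6.41 to -1.68 and the segments detected from -5.45 to 0.3.

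With the replicate number as a block, 0 of 13841 genes were called, 1168 had an unadjusted limma p under 0.05, and 16 heavy V genes did, 6 higher and 10 lower. Same-numbered mice had correlations of deviations of -0.107, -0.0066, -0.144, 0.0564 and 0.0207, and no mouse correlated highest with its own number, so the numbers were not taken as a pairing. Depth is unknown, so low segments such as Ighv1-20 have no stated counting error.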

Other observations

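Ighv3-2, a pseudogene named after its values were seen, measured 0, 0, 0, 4.92 and 0 TPM in wild-type replicates 1 to 5 and 0.498, 1.26, 0.694, 0 and 58.2 TPM in null replicates 1 to 5. The high value fell in null replicate 5, the mouse in which the functional family member Ighv3-6 reached 255 TPM. All heavy V pseudogenes together held 85.6 TPM in that mouse, so Ighv3-2 made up most of its high pseudogene share. Ighv3-2 holds 9.14% of the 31-base words of Ighv3-6. Its own nearest relative by this measure is the functional segment Ighv3-1, which has 42.0% of the words of Ighv3-2. In all, 60.5% of the words of Ighv3-2 occur in some other gene of the locus. How reads were split among these genes was not tested. Ighv11-2, a segment known from B1 cell antibodies to phosphatidylcholine, measured 0.278, 5.82, 0.872, 24.3 and 137 TPM in the wild-type and 38.4, 8.62, 30.995, 23.1 and 8.41 TPM in the null mice, with wild-type replicate 5 highest and the groups overlapping.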
